A study of Mus musculus with 8 samples.

Results

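The 40 genes described here are type I interferon response genes, a fixed list of genes that interferon switches on in most cells, and 38 of them were measured. Isg15, which is on the array only in a probe set shared by several symbols, and Ifi44, for which no probe set with a single symbol was found, were not analysed here. The 38 genes were covered by 67 probe sets, out of 17790 genes tested in all. The data are signals of liver RNA from 8-week old BALB/c mice on Affymetrix mouse genome arrays, with 8 arrays in 4 groups of 2 and the pooled RNA of 3 mice on each array. All mice received a recombinant adenovirus (rAd.) 5 days before a 78% resection of the liver, so that every group, the controls included, carried an adenovirus, and livers without virus were not analysed here. Post-A20 is the liver left 24 h after resection in mice given rAd.A20, which encodes human A20, and pre-A20 is the resected tissue of mice given the same virus. Post-βgal and pre-βgal are the matching groups given rAd.βgal, which encodes β-galactosidase. The vectors were stated to transduce between 30% and 40% of hepatocytes, and each array therefore mixes transduced and other cells. The protocol text of both post-A20 samples repeats the βgal wording, while their titles and source names give A20, and they were taken as post-A20.

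Type I interferons (interferon-β and the interferon-α family) are released by cells that sense foreign nucleic acids. They bind a receptor made of Ifnar1 and Ifnar2, whose kinases Jak1 and Tyk2 activate a complex that holds Stat2 and Irf9, and this complex enters the nucleus and binds the interferon-stimulated response element (ISRE) of a large set of genes. The products block viral replication, sense viral RNA and DNA, attach the ubiquitin-like protein ISG15 to other proteins, and through Irf7 raise the production of interferon itself. Interferon-γ, which acts through its own receptor, induces part of the same genes, the immune GTPases most of all. Adenoviral vectors are known inducers of interferon in mouse liver, and A20 is an ubiquitin-editing enzyme known as an inhibitor of NF-κB and of the signals that lead to interferon.

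Promoter sequence was read from RefSeq (GRCm38.p6), as the 250 bases before and 50 bases after each start site, and 27 of the 38 genes had an entry. The ISRE core, searched as GAAA, any 2 bases and GAAA on both strands (TTTC, any 2 bases and TTTC on the other strand), was found in 13 of these 27 genes (48.1%) and in 3.99% of the 27025 genes with an entry. The GAS element, known from the response to interferon-γ (TTC, any 3 bases and GAA), was found in 6 of the 27 genes (22.2%) and in 9.55% of all. A match describes the letters in these windows only. The promoters of 4 genes that hold the ISRE core are shown as examples of it in genes given per array below. They were chosen for the motif, and of the 4 only Rsad2 was called in a comparison. The called genes Oasl1 and Irf7 have an entry without a match. Each is written 5′ to 3′ along the gene, with the ISRE matches in capitals. Rsad2 (chr12:26456403-26456702, minus strand) has its match at bases −120 to −111 from the start site. Ifit1 (chr19:34640639-34640938, plus strand) has matches at −104 to −95 and −85 to −76. Bst2 (chr8:71537423-71537722, minus strand) and Irgm1 (chr11:48871371-48871670, minus strand) each have a pair of overlapping matches, at −130 to −121 and −124 to −115 in Bst2 and at −30 to −21 and −24 to −15 in Irgm1. In Bst2 a GAS match at −136 to −128 overlaps the first of them.
Rsad2: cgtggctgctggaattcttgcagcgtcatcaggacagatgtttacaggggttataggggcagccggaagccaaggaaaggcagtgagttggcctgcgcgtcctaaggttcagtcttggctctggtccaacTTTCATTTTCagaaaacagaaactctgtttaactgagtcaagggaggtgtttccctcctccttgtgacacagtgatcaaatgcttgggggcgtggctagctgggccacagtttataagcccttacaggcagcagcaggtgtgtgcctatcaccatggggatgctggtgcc
Ifit1: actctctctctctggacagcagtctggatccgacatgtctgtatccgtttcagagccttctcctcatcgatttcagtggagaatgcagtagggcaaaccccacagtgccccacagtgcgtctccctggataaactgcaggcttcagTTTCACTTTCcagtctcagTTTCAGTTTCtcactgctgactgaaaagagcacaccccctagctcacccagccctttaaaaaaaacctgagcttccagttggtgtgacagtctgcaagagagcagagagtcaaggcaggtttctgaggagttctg
Bst2: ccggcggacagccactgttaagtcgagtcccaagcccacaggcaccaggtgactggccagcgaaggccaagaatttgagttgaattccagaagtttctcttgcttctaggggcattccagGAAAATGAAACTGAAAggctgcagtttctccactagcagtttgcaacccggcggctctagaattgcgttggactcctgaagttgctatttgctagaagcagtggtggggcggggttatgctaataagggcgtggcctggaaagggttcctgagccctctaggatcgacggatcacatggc
Irgm1: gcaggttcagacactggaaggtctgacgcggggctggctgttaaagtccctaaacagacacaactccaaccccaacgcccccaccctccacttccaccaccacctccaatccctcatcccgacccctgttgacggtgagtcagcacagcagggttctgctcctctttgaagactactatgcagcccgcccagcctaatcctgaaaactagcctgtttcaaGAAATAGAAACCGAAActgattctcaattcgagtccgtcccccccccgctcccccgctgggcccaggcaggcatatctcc

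Before the results, 2 properties of the arrays need to be given. The β-actin 3′/5′ signal ratio, which is higher where RNA is less intact, was 1.40 and 1.31 in post-A20, 1.43 and 1.62 in pre-A20, 3.64 and 1.43 in post-βgal and 7.0 and 1.27 in pre-βgal arrays (replicate 1 and replicate 2 of each group, as throughout). By this ratio each βgal group holds 1 array of lower integrity. The pyruvate carboxylase ratio was also highest in these arrays, at 8.88 in post-βgal and 10.2 in pre-βgal replicate 1. It was 6.23 and 3.60 in post-A20 arrays, where the GAPDH ratio was 1.08 and 0.975. The RNA integrity covariate named below is the β-actin ratio alone. The part of integrity in the difference between the post-A20 arrays was not tested. The post-A20 arrays stood apart from each other in the interferon response genes. Replicate 1 was higher than replicate 2 in 36 of the 38 genes, with a median difference of 0.72 on the log2 scale, against 0.02 for all genes tested, and 15 of the 38 (39.5%) differed by more than 1 log2 unit, against 0.556% of all genes. Gbp2 differed most, by 2.43, and Sp100 ran the other way, at −0.49. The medians of the same difference were 0.08 in pre-A20, −0.33 in post-βgal and 0.03 in pre-βgal arrays, as the plot of replicate differences shows. The medians that rest on the post-A20 arrays are therefore also given without replicate 1 and without replicate 2. Nothing in the labels says which mice the pools before and after resection share, and the p-values measure only the spread between these arrays.

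**Figure D1:**
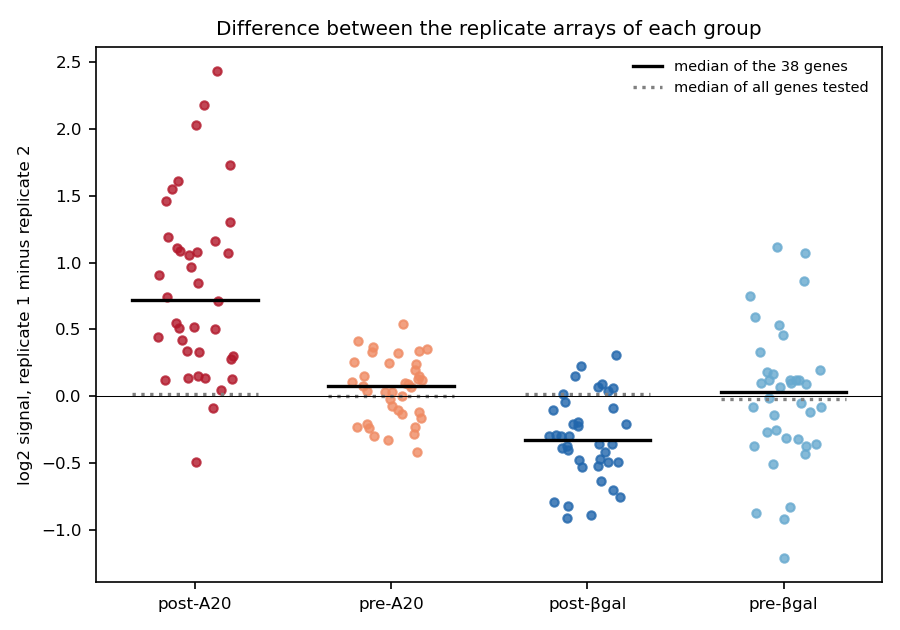
Difference in log2(signal + 16) between replicate 1 and replicate 2 of each group, with 1 point per interferon response gene (38), a solid line at their median and a dotted line at the median of all 17790 genes. In post-A20 the points lie mostly above 0 around a median of 0.72, while the other 3 groups have medians of 0.08, −0.33 and 0.03.

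As a group, the interferon response genes were highest in pre-βgal livers. The pre-βgal mean was the highest of the 4 groups for 33 of the 38 genes, against 29.1% of all genes tested, and the pre-A20 mean was the lowest for 26 of the 38, against 29.1% of all. Centred on each gene's mean over the 8 arrays, the median of the 38 genes was 0.25 and −0.45 log2 units in the post-A20 arrays, −0.35 and −0.31 in the pre-A20 arrays, −0.16 and 0.10 in the post-βgal arrays and 0.53 and 0.45 in the pre-βgal arrays, while the median of all genes stayed between −0.03 and 0.02. Both pre-βgal arrays were above the other 6 arrays in 14 of the 38 genes, among them Ifit1, Ifit3, Rsad2, Oasl1, Oasl2, Mx2, Irf7, Usp18 and Bst2, against 9.92% of all genes. Pre-βgal replicate 1, the array of lowest integrity, was the highest array in 17 of the 38 genes and the lowest in 3. The shares of all genes were 16.6% and 16.2%. Replicate 2 was the highest in 13 (15.7% of all) and the lowest in 0 (8.61%). The part of integrity in these counts was not tested. The genes also varied more than most. The highest array was 2.59 times the lowest in the median gene, against 1.52 times for all genes, and 15 of the 38 (39.5%) spanned 3-fold or more, against 5.23% of all, with Rsad2 at 11.8-fold and Oas2 at 1.24-fold as the extremes. Over the 703 pairs of genes, the median Pearson correlation across the 8 arrays was 0.66, which is a description only, since the genes share the same arrays and groups. Sp100, Cmpk2, Mx1 and Stat2 followed the others least.

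**Figure D2:**
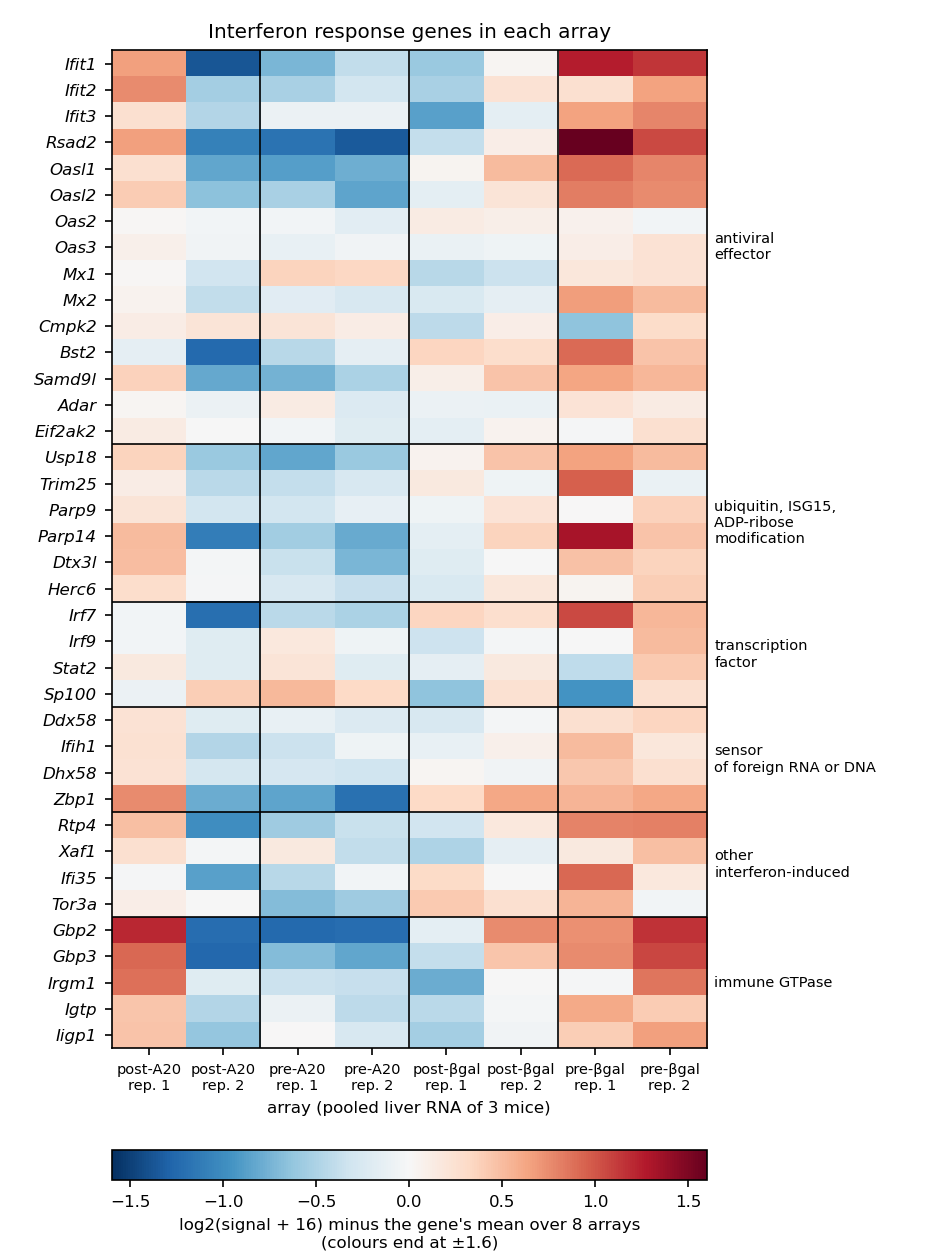
Heat map of log2(signal + 16) of 38 interferon response genes (rows, grouped by role) in each of the 8 arrays (columns), centred on the mean of each gene over the arrays. Both pre-βgal columns and post-A20 replicate 1 are mostly above the mean (medians 0.53, 0.45 and 0.25), and post-A20 replicate 2 and both pre-A20 columns are mostly below it (−0.45, −0.35 and −0.31).

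The first comparison asks how these genes differed with A20 before resection. Rsad2 and Oasl1 fell in pre-A20 livers relative to pre-βgal livers and no gene of the group rose, which is 2 of 38 called at an adjusted p under 0.05 (limma, 2-sided, Benjamini-Hochberg over all genes), against 1.78% of all genes called lower and 2.50% called in either direction. The difference was negative for 35 of the 38 genes (55.1% of all genes), with a median of −0.78 log2 units against −0.03 for all genes and a range from −2.87 in Rsad2 to 0.78 in Sp100. The pre-A20 arrays lay below both pre-βgal arrays without overlap for 31 of the 38 genes and above them for 2 (Sp100 and Mx1), against 29.3% and 22.1% of all genes. At an unadjusted p under 0.05 there were 21 of the 38 genes, against 21.8% of all.

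Rsad2 encodes viperin, an interferon-induced enzyme that interferes with the replication of many viruses. Its signal was 405 and 363 in pre-A20 arrays, against 4282 and 1962 in pre-βgal arrays. The pre-A20 mean was 0.123 times the pre-βgal mean, and the difference was −2.87 ± 0.56 log2 units (SE of the model, adjusted p = 0.0481). The groups were far apart, and within pre-βgal replicate 1 was well above replicate 2. A second probe set of Rsad2, with 199 and 174 in pre-A20 and 1947 and 1548 in pre-βgal arrays, gave −3.11 ± 0.55 and passed the test over all probe sets (adjusted p = 0.0436, against 0.0510 for the first probe set in that test). The third gave 159 and 106 in pre-A20, against 185 and 1200 in pre-βgal arrays, and did not pass (−1.76 ± 0.85, adjusted p = 0.277). Its low pre-βgal value is that of replicate 1, the array of lowest RNA integrity, and the part of integrity in it was not tested.

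Oasl1 belongs to the oligoadenylate synthetase-like proteins and in mice is known to restrain the translation of Irf7. It measured 226 and 243 in pre-A20 arrays, against 815 and 746 in pre-βgal arrays, a mean of 234 ± 11.8 against 780 ± 48.6 (SD, n = 2 arrays each). The 4 values do not overlap, and the difference was −1.67 ± 0.33 log2 units (adjusted p = 0.0483). Its neighbour Oasl2 measured 125 and 96.8 in pre-A20 arrays, against 340 and 324 in pre-βgal arrays, and with −1.46 ± 0.31 stayed just outside the threshold (adjusted p = 0.0553).

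Another 3 of the 6 genes with the smallest p in this comparison lay just outside the threshold as well. Tor3a, an interferon-induced torsin ATPase, had 124 and 137 in pre-A20 arrays, against 314 and 203 in pre-βgal arrays (−0.88 ± 0.19, adjusted p = 0.0557). Mx2, the cytoplasmic Mx GTPase of mice, had 380 and 360 in pre-A20 arrays, against 700 and 619 in pre-βgal arrays (−0.81 ± 0.17, adjusted p = 0.0583). Dtx3l, a ubiquitin ligase that acts with Parp9, had 1379 and 1067 in pre-A20 arrays, against 2467 and 2295 in pre-βgal arrays (−0.96 ± 0.22, adjusted p = 0.0653). In each of these the pre-A20 arrays were the lower ones without overlap. Mx1, the nuclear Mx GTPase, of which many inbred strains carry a defective allele, did not follow them, with 178 and 174 in pre-A20, against 155 and 161 in pre-βgal arrays (0.14 ± 0.12, adjusted p = 0.511).

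By role, the 15 antiviral effectors had a median difference of −0.81 (13 negative, 2 called lower), the 6 genes of ubiquitin, ISG15 and ADP-ribose modification −0.85 (all 6 negative, none called), the 4 sensors of foreign RNA or DNA −0.59 (all 4 negative, none called) the 5 immune GTPases −0.78 (all 5 negative, none called) and the 4 other interferon-induced genes −0.83 (all 4 negative, none called). Ifit1, which binds viral RNA, measured 309 and 393 in pre-A20, against 1272 and 1169 in pre-βgal arrays (−1.76 ± 0.56, adjusted p = 0.132). Gbp2, an immune GTPase that attacks the vacuoles of intracellular pathogens, measured 235 and 239 in pre-A20, against 962 and 1299 in pre-βgal arrays (−2.17, adjusted p = 0.129). Both were separated without overlap before resection, while their spread within a group was widest in post-A20. The 4 transcription factors differed among themselves. Irf7 was lower in pre-A20 (−1.26 ± 0.36, adjusted p = 0.104), Irf9 and Stat2 were close to 0 (−0.19 and 0.00), and Sp100 was higher in pre-A20 (0.78, adjusted p = 0.311).

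The 3 genes that were not lower in pre-A20 livers were Sp100, Cmpk2 and Mx1, and 2 of these depended on the probe set. Cmpk2, a mitochondrial nucleotide kinase encoded beside Rsad2, had 547 and 511 in pre-A20, against 297 and 577 in pre-βgal arrays (0.34), while its other probe set had 258 and 249 in pre-A20, against 439 and 798 in pre-βgal arrays (−1.18 ± 0.45). Sp100, a nuclear body protein, had 319 and 276 in pre-A20, against 104 and 261 in pre-βgal arrays, while its other probe set had 90.9 and 87.2 in pre-A20, against 148 and 116 in pre-βgal arrays (−0.48 ± 0.11). In the probe sets that ran the other way, pre-βgal replicate 1, the array of lowest integrity, was the lowest of the 8 arrays, and the part of integrity was not tested. Over the 67 probe sets of the group, 61 were lower in pre-A20 livers and 1 of these was called (1.83% of all probe sets called in either direction), and 3 of the 19 genes with several probe sets had probe sets of both signs.

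The size of the difference before resection held while the calls did not. The median of the 38 genes lay between −0.80 and −0.70 over all alternatives tried, and was −0.71 without both βgal replicate 1 arrays. Fits without a variance trend, with a replicate block, with only the arrays compared or without a post-resection array cannot move this median. The count of called genes was 0 after quantile normalization or median centring of the arrays, and 0 without either pre-A20 array, either post-βgal array or pre-βgal replicate 1, 6 without pre-βgal replicate 2 (5 lower and Sp100 higher) and 7 without either post-A20 array, while the count over all genes, 444 with all arrays, ran between 5 and 1686 with 1 array left out. The adjusted p of Rsad2 ran between 0.0212 and 0.295 and that of Oasl1 between 0.0293 and 0.283 over the alternatives.

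**Figure D3:**
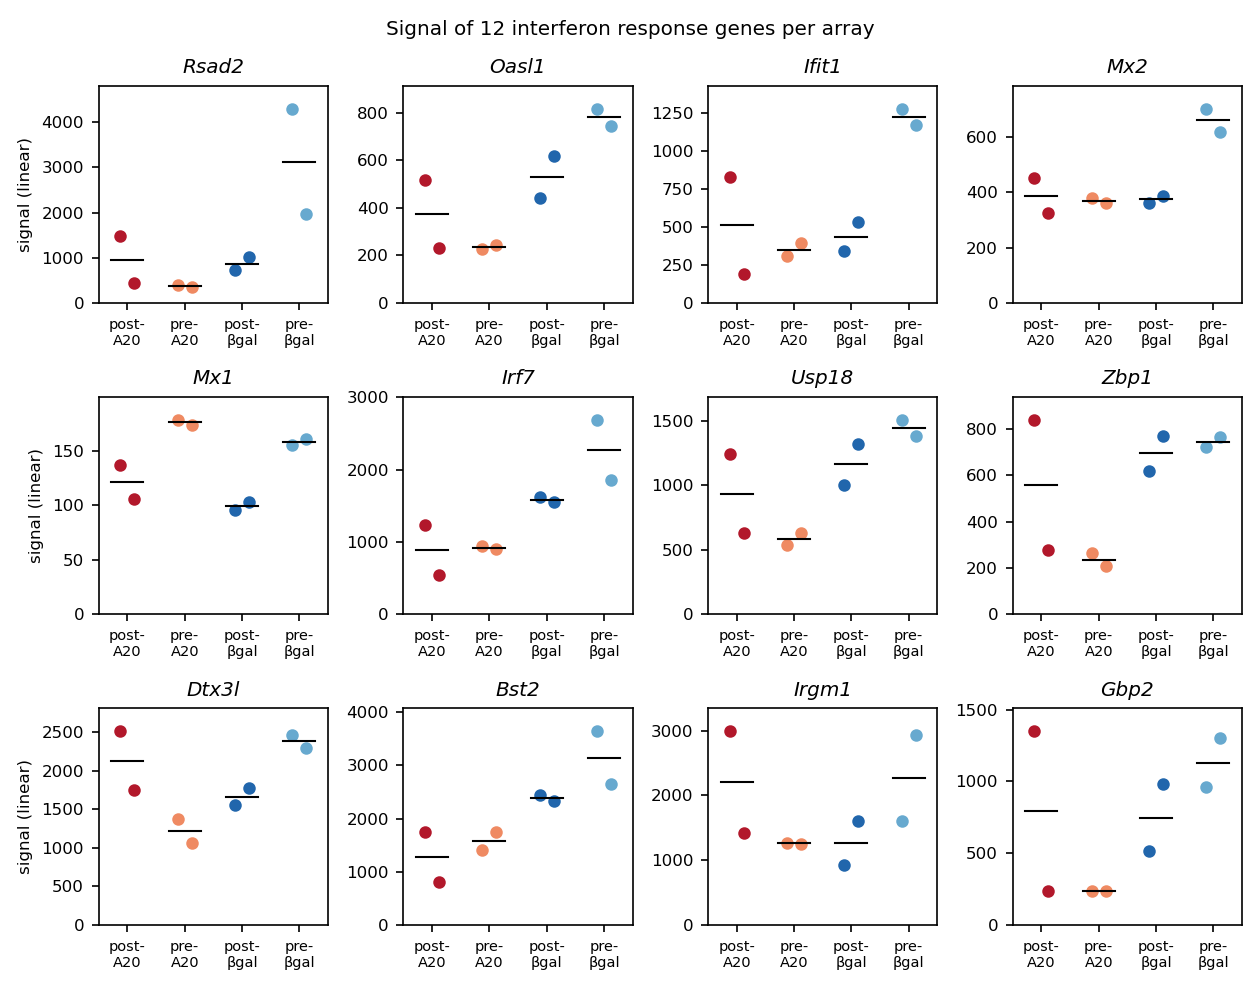
Signal on a linear scale of 12 interferon response genes in each array (points) with the mean of each group (line), in post-A20, pre-A20, post-βgal and pre-βgal livers. For Rsad2, Oasl1 and Ifit1 the pre-A20 points lie below both pre-βgal points, and in most panels the post-A20 points are far apart, as in Gbp2 with 1349 and 238.

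The second comparison asks whether the A20 difference was there 24 h after resection. No gene of the group passed the test in post-A20 livers relative to post-βgal livers, against 0.332% of all genes called by limma in either direction. At an unadjusted p under 0.05 there were 2 of the 38 genes (Bst2 and Irf7), against 19.6% of all. The difference was negative for 21 of the 38 genes (45.4% of all genes), with a median of −0.05 against 0.03 for all genes, and 5 genes were lower and 5 higher without overlap of arrays, against 26.4% and 33.7% of all genes. This median rests on which post-A20 array is used: it was −0.33 without replicate 1 and 0.27 without replicate 2, and 0.12 without post-βgal replicate 2. Post-A20 replicate 1 was above both post-βgal arrays in 25 of the 38 genes (44.4% of all genes) and replicate 2 was below both in 25 of them (35.3% of all).

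The 6 genes with the smallest p after resection ran in both directions. Bst2, or tetherin, which holds budding virus at the cell surface, measured 1750 and 800 in post-A20 arrays, against 2450 and 2336 in post-βgal arrays (−1.0 ± 0.35, adjusted p = 0.190). Irf7, the transcription factor that amplifies interferon production, measured 1236 and 542 in post-A20 arrays, against 1619 and 1551 in post-βgal arrays (−0.94 ± 0.36, adjusted p = 0.215). In both genes the 2 post-A20 arrays were below the post-βgal arrays, as the pre-A20 arrays were below the pre-βgal arrays, with 1407 and 1740 against 3642 and 2646 for Bst2 and 946 and 896 against 2683 and 1859 for Irf7. Oasl1 measured 516 and 233 in post-A20 and 441 and 617 in post-βgal arrays, which overlap (−0.56 ± 0.33, adjusted p = 0.371).

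The other 3 were higher in post-A20 livers without passing the test. Mx1 had 137 and 106 in post-A20, against 95.6 and 103 in post-βgal arrays (0.25 ± 0.12, adjusted p = 0.282). Xaf1, a pro-apoptotic protein that binds the inhibitor XIAP, had 3382 and 2774 in post-A20, against 1995 and 2556 in post-βgal arrays (0.44 ± 0.24, adjusted p = 0.348). Irgm1, an immune GTPase that acts on the membranes around intracellular pathogens, had 2989 and 1413 in post-A20, against 920 and 1607 in post-βgal arrays (0.75 ± 0.43, adjusted p = 0.362). Mx1 and Xaf1 did not overlap between the groups, while Irgm1 did, its high value being that of post-A20 replicate 1. Rsad2, which fell before resection, had 1482 and 437 in post-A20 and 721 and 1016 in post-βgal arrays, so that both post-βgal values lie between the post-A20 values (−0.08 ± 0.56, adjusted p = 0.945).

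Averaged over both times, with 4 arrays of each transgene, 3 genes of the group fell in A20 livers and none rose, against 3.31% of all genes called lower, 2.08% called higher and 5.39% called in either direction. They were Oasl1 (−1.12 ± 0.23, adjusted p = 0.0408), Tor3a (−0.58 ± 0.13, adjusted p = 0.0481) and Irf7 (−1.10 ± 0.25, adjusted p = 0.0493). Tor3a measured 230 and 209 in post-A20 and 124 and 137 in pre-A20 arrays, against 287 and 257 in post-βgal and 314 and 203 in pre-βgal arrays. Within each time its A20 arrays lay below the βgal arrays, while both post-A20 values were above that of pre-βgal replicate 2. The median of the 38 genes was −0.32 and 35 were negative, against 0.00 and 50.3% for all genes. The calls were lost without several of the arrays: none was left without post-A20 replicate 2, either pre-A20 array or either post-βgal array, Tor3a alone was called without pre-βgal replicate 1, 5 genes without Tor3a among them were called lower without post-A20 replicate 1, and 9 genes without pre-βgal replicate 2, of which 7 were lower, all 3 among them, and Cmpk2 and Sp100 higher. Over all genes 75 and 2707 were called in these fits, against 959 with all arrays. Irf7 was also lost with RNA integrity as a covariate (−0.94, adjusted p = 0.0664) and with a group mean of at least 100 (adjusted p = 0.0514), Irf7 and Tor3a after quantile normalization or median centring, Tor3a without a variance trend, and all 3 without both βgal replicate 1 arrays. The adjusted p over the arrays left out reached 0.129 for Oasl1, 0.155 for Tor3a and 0.151 for Irf7.

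**Figure D4:**
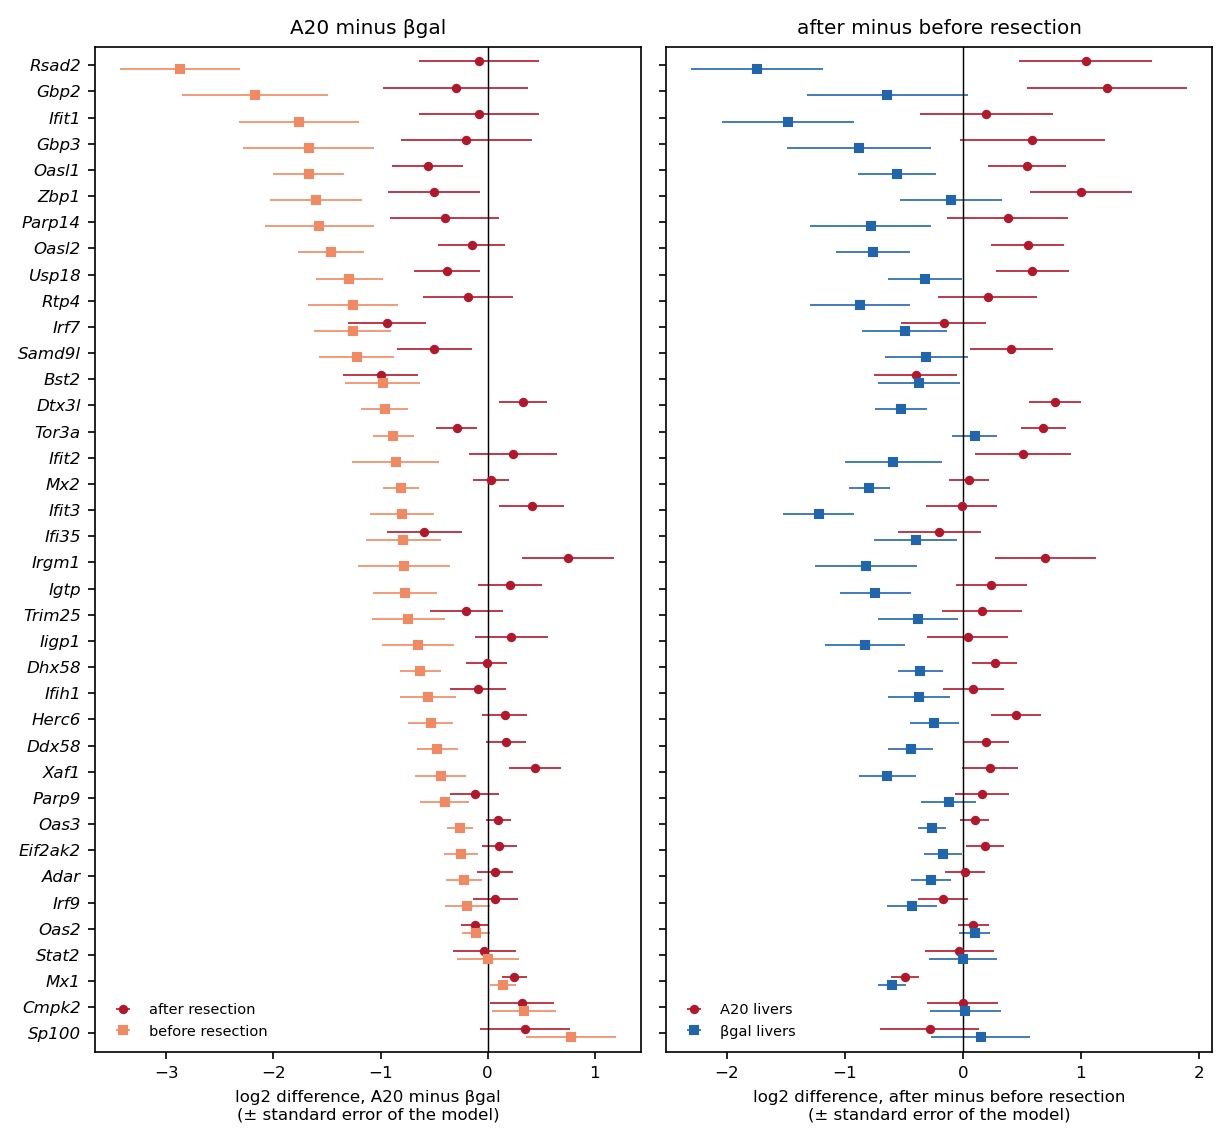
Log2 difference (points, with the standard error of the model as bars) of 38 interferon response genes, with A20 minus βgal on the left (after and before resection) and after minus before resection on the right (A20 and βgal livers). Before resection most A20 minus βgal differences are negative (median −0.78), after resection they centre on −0.05, and the resection differences centre on 0.20 in A20 and −0.43 in βgal livers.

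The third comparison is resection in A20 livers. No gene of the group passed the test, against 1.01% of all genes called by limma (0.382% lower and 0.630% higher), and 4 of the 38 had an unadjusted p under 0.05, against 15.4% of all. The difference was negative for only 9 of the 38 genes (45.6% of all genes), with a median of 0.20 against 0.02 for all genes. For 8 genes the post-A20 arrays were above both pre-A20 arrays without overlap and for 1 gene (Mx1) below, against 29.4% and 22.3% of all genes. The direction again rests on replicate 1 of post-A20, which was above both pre-A20 arrays in 32 of the 38 genes (42.8% of all genes), while replicate 2 was above both in 8 (38.9% of all) and below both in 18 (33.9% of all). The median was −0.06 without post-A20 replicate 1 and 0.49 without replicate 2.

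Of the 6 genes with the smallest p, Dtx3l had 2512 and 1747 in post-A20, against 1379 and 1067 in pre-A20 arrays (0.78 ± 0.22, adjusted p = 0.152). Tor3a had 230 and 209 in post-A20, against 124 and 137 in pre-A20 arrays (0.68 ± 0.19, adjusted p = 0.138). Zbp1, a sensor of Z-form nucleic acids that can trigger cell death, had 839 and 277 in post-A20, against 266 and 206 in pre-A20 arrays (1.00 ± 0.43, adjusted p = 0.322). Both post-A20 arrays were above both pre-A20 arrays in these 3 genes, in Zbp1 by a narrow margin in replicate 2. Herc6, which attaches ISG15 to proteins in mice, had 763 and 617 in post-A20, against 517 and 478 in pre-A20 arrays (0.45 ± 0.21, adjusted p = 0.358). Usp18, which removes ISG15 and restrains signalling at Ifnar2, had 1241 and 627 in post-A20, against 534 and 628 in pre-A20 arrays, and the groups overlap (0.59 ± 0.31, adjusted p = 0.412). Mx1 ran the other way, with 137 and 106 in post-A20, against 178 and 174 in pre-A20 arrays (−0.49 ± 0.12, adjusted p = 0.101). Tor3a alone passed when either pre-βgal array was left out (adjusted p = 0.0286 without replicate 1 and 0.0302 without replicate 2).

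The fourth comparison is resection in βgal livers. Mx1 fell in post-βgal livers relative to pre-βgal livers and no gene rose, which is 1 of 38, against 0.748% of all genes called lower, 1.50% called higher and 2.25% called in either direction. The difference was negative for 33 of the 38 genes, against 57.5% of all genes, with a median of −0.43 against −0.05 for all. The post-βgal arrays were below both pre-βgal arrays without overlap for 25 genes and above them for 1 (Oas2), against 33.0% and 20.4% of all genes, and 10 of the 38 had an unadjusted p under 0.05, against 22.2% of all.

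Mx1 measured 95.6 and 103 in post-βgal arrays, against 155 and 161 in pre-βgal arrays. These are dim signals, all below the median signal of the same array (153 and 159 in post-βgal, 159 and 166 in pre-βgal). Mx1 also followed the other genes of the group weakly over the 8 arrays, with a median correlation of 0.13. Its mean was 99.1 ± 4.95 in post-βgal against 158 ± 4.19 in pre-βgal arrays (SD, n = 2 arrays each). The difference was −0.60 ± 0.12 log2 units (adjusted p = 0.0477), and the call was lost without any 1 of the pre-A20, post-βgal or pre-βgal arrays (adjusted p between 0.0798 and 0.239). It was also lost after quantile normalization or median centring, with a replicate block (adjusted p = 0.0516), with only the arrays compared, without both βgal replicate 1 arrays, and without a variance trend, where Mx2 was the gene called instead. Averaged over both transgenes, Mx1 was again the only gene of the group that fell (−0.54 ± 0.08, adjusted p = 0.0130), against 1.93% of all genes called lower, 2.83% called higher and 4.76% called in either direction, and 27 of the 38 genes were negative (52.9% of all). This call was lost without either pre-A20 array or post-βgal replicate 1 (adjusted p between 0.0534 and 0.0595).

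The other genes with the smallest p were lower in post-βgal livers without passing the test. Mx2 had 361 and 388 in post-βgal, against 700 and 619 in pre-βgal arrays (−0.79 ± 0.17, adjusted p = 0.0649). Ifit3, which forms complexes with Ifit1 proteins, had 391 and 648 in post-βgal, against 1138 and 1259 in pre-βgal arrays (−1.22 ± 0.30, adjusted p = 0.0782). Rsad2 had 721 and 1016 in post-βgal, against 4282 and 1962 in pre-βgal arrays (−1.74 ± 0.56, adjusted p = 0.135). In these genes both post-βgal arrays were clearly the lower ones. Xaf1 had 1995 and 2556 in post-βgal, against 3160 and 3956 in pre-βgal arrays (−0.64 ± 0.24, adjusted p = 0.178). Ifit1 had 339 and 533 in post-βgal, against 1272 and 1169 in pre-βgal arrays (−1.48 ± 0.56, adjusted p = 0.181). Among the roles, the antiviral effectors had a median of −0.56 and the immune GTPases of −0.82, with all 5 GTPases negative and none called. Zbp1 stayed close to its level before resection, with 621 and 770 in post-βgal and 725 and 766 in pre-βgal arrays (−0.10 ± 0.43, adjusted p = 0.905).

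The 4 comparisons share arrays, and their medians of −0.05, −0.78, 0.20 and −0.43 are linked through the pre-βgal and pre-A20 groups. The difference between resection in A20 livers and resection in βgal livers, tested as the interaction of transgene and resection, passed for none of the 38 genes and for none of the 17790 (0.00% called by limma), while 12 of the 38 genes and 15.7% of all had an unadjusted p under 0.05. Its median over the 38 genes was 0.71, against 0.05 for all genes, and 33 of the 38 were positive. The estimate was highest in Rsad2 (2.79 ± 0.79, adjusted p = 0.225) and the smallest adjusted p was that of Dtx3l (1.30 ± 0.31, adjusted p = 0.212). The median interaction was 0.35 without post-A20 replicate 1 and 0.96 without replicate 2. The medians with each array left out show that the differences before resection and in βgal livers keep their sign whichever array is removed, whereas those after resection and in A20 livers do not.

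**Figure D5:**
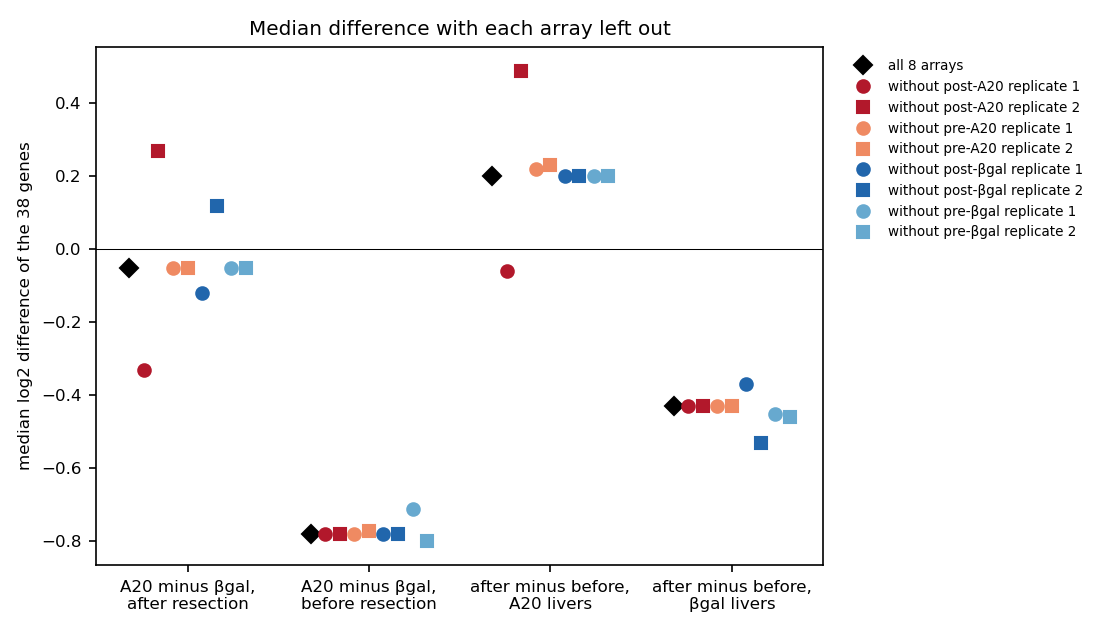
Median log2 difference of 38 interferon response genes in the 4 comparisons with all 8 arrays (diamond) and with each array left out in turn (circles for replicate 1, squares for replicate 2, coloured by group). The median stays negative before resection and in βgal livers, and takes both signs after resection (−0.33 to 0.27) and in A20 livers (−0.06 to 0.49).

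The rest of the pathway was read through lists of its other genes. Of 63 further interferon-stimulated genes, 52 were tested. Before resection 3 of the 52 fell and none rose in pre-A20 livers (1.78% of all genes called lower), with a median of −0.75, and 49 were negative (55.1% of all genes). They were Helz2, a helicase (545 and 452 in pre-A20, against 1298 and 978 in pre-βgal arrays, −1.16 ± 0.19, adjusted p = 0.0361), Slfn1, a Schlafen protein (55.3 and 58.0 in pre-A20, against 116 and 130 in pre-βgal arrays, −0.93 ± 0.19, adjusted p = 0.0492), and Parp11, an ADP-ribosyltransferase (280 and 231 in pre-A20, against 755 and 657 in pre-βgal arrays, −1.41 ± 0.29, adjusted p = 0.0499). After resection Slfn1 alone fell in post-A20 livers, with 93.2 and 55.4 in post-A20, against 180 and 213 in post-βgal arrays (−1.26 ± 0.19, adjusted p = 0.0490), and the median was −0.10. Of all genes, 0.236% were called lower in this comparison. Averaged over both times, 7 of the 52 were called lower in A20 livers and none higher, against 3.31% and 2.08% of all genes. In A20 livers none passed after resection (median 0.21, 43 of 52 positive), nor in βgal livers (median −0.29, 42 of 52 negative), and 5 of the 52 in A20 livers and 11 in βgal livers had an unadjusted p under 0.05, against 15.4% and 22.2% of all genes.

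Of 17 type I interferon genes, 8 were tested, several at a low signal. Of these 8, 1 fell in pre-A20 livers, against 1.78% of all genes called lower. It was Ifnb1, which encodes interferon-β, with 138 and 110 in pre-A20, against 218 and 245 in pre-βgal arrays (−0.83 ± 0.12, adjusted p = 0.0279). After resection Ifnb1 had 143 and 145 in post-A20, against 161 and 146 in post-βgal arrays (−0.08 ± 0.12, adjusted p = 0.725). Ifna2 ran the other way, with 146 and 144 in pre-A20, against 72.3 and 103 in pre-βgal arrays (0.66 ± 0.16, adjusted p = 0.0760). Averaged over both times, 1 of the 8 was called lower (Ifnb1, −0.45) and 1 higher (Ifna2, 0.58), against 3.31% and 2.08% of all genes. The list had a median of 0.03 before and 0.07 after resection. Ifng, which encodes interferon-γ, had 39.2 and 43.0 in pre-A20, against 87.6 and 78.8 in pre-βgal arrays (−0.80 ± 0.18, adjusted p = 0.0632).

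Of 10 genes of the receptors and of Jak-Stat signalling, 9 were tested, and 1 fell in pre-A20 livers, against 1.78% of all genes called lower. It was Jak2, a kinase of the interferon-γ receptor, with 565 and 468 in pre-A20, against 1298 and 1116 in pre-βgal arrays (−1.20 ± 0.20, adjusted p = 0.0349). The receptor genes did not pass: Ifnar1 had 310 and 370 in pre-A20, against 297 and 253 in pre-βgal arrays (0.29 ± 0.14, adjusted p = 0.278), and Ifnar2 had 1200 and 1233 in pre-A20, against 788 and 923 in pre-βgal arrays (0.50 ± 0.16, adjusted p = 0.130), so that both were the higher ones in pre-A20 without overlap. Of the 9 genes, these 2 were higher and 2 others lower without overlap, against 22.1% and 29.3% of all genes. Of 10 brakes on interferon signalling, 1 fell in pre-A20 livers, against 1.78% of all genes called lower. It was the phosphatase gene Ptpn2, with 492 and 535 in pre-A20, against 1282 and 908 in pre-βgal arrays (−1.05 ± 0.20, adjusted p = 0.0474). Of 16 genes that lead to the induction of interferon, 14 were tested and none was called in any of the 4 comparisons, where 1, 5, 1 and 2 of them had an unadjusted p under 0.05 (A20 against βgal after and before resection, then resection in A20 and βgal livers), against 19.6%, 21.8%, 15.4% and 22.2% of all genes. The DNA sensor gene Cgas had 169 and 138 in pre-A20, against 239 and 240 in pre-βgal arrays (−0.60 ± 0.13, adjusted p = 0.0623).

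Whole liver RNA holds the RNA of several cell types, and fewer cells of a type and less RNA per cell cannot be told apart in it. The hepatocyte markers were high in all arrays, with Alb between 18087 and 19358. The summed signal of 7 Kupffer cell markers was 4713 and 4293 in post-A20, 2796 and 2986 in pre-A20, 3550 and 4616 in post-βgal and 4995 and 4402 in pre-βgal arrays, lowest in pre-A20. Of the 7, 5 were lower in pre-A20 than in pre-βgal without overlap (29.3% of all genes) and 1, Marco, was higher (248 and 254 in pre-A20, against 184 and 159 in pre-βgal arrays, 0.51 ± 0.15, adjusted p = 0.105). None was called before resection, and Marco rose in A20 livers averaged over both times (0.46 ± 0.10, adjusted p = 0.0469). The summed signal of 4 neutrophil markers was 1476 and 1194 in post-A20 and 900 and 909 in pre-A20, against 4194 and 5015 in post-βgal and 2639 and 1887 in pre-βgal arrays. Of the 4, 3 were called lower in A20 livers after resection (0.236% of all genes) and 2 before it (1.78%). S100a8 and S100a9 fell at both times (−2.23 and −2.51 after resection, −2.08 and −2.65 before it). Mmp8 had 138 and 135 in post-A20, against 372 and 472 in post-βgal arrays, and was called after but not before resection. Ngp did not fall (0.00 after and 0.12 before resection). Of the 4 plasmacytoid dendritic cell markers, the defining Siglech lay between 106 and 123 in all arrays. Their sum was 1308 and 2546 in post-A20, 738 and 635 in pre-A20, 3361 and 3271 in post-βgal and 1174 and 1252 in pre-βgal arrays. After resection the sum was mostly Ly6d, which had 254 and 216 in pre-A20 and 565 and 631 in pre-βgal arrays. The sums of 5 T cell markers (1640 to 2174), 4 natural killer cell markers (649 to 838), 3 B cell markers (279 to 331) and 4 endothelial markers (1823 to 2485) are given as ranges over the 8 arrays. Such sums rest mostly on the brightest markers. Before resection 3 natural killer cell markers were lower and 1 higher in pre-A20 without overlap, against 29.3% and 22.1% of all genes. The same counts were 2 and 1 for T cell, 0 and 2 for B cell and 1 and 1 for endothelial markers. Averaged over both times, 1 endothelial marker was called lower in A20 livers and none higher, against 3.31% and 2.08% of all genes. The part of these cells in the interferon response genes was not tested.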

How the data were processed

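RNA of liver lobes before resection and of the remnant after it was measured on 8 arrays. The authors deposited normalized intensity values on a linear scale. The study's methods describe a smoothing-spline invariant-set normalization with perfect-match probes only, while the submitters' processing notes name MAS5, and the sources used here do not settle which of these made the table. Array medians lay between 153 and 166. Signals were analysed as log2(signal + 16), which understates changes of dim genes. Of 45101 probe sets, 42703 that were no controls and had a mean of at least 40 in a group were fitted together in limma 3.58.1 (R 4.3.3) with a trended prior, with 4 group means and 4 residual degrees of freedom. Each of 17790 genes was read through its probe set of highest mean signal, among the 34945 with 1 symbol in the platform annotation (932 had several and 9160 none), and p-values were adjusted over these genes (Benjamini-Hochberg, threshold 0.05, 2-sided). The 7 comparisons were A20 against βgal after and before resection, resection in each transgene, both averages and the interaction. With 2 arrays against 2, an exact permutation test cannot go below p = 0.333, and the number of arrays limits the precision. Genes given per array are those called and the 6 with the smallest p in each comparison of 2 groups, with a few further examples by role. The genes, lists and tests were chosen with earlier results of these data known. The script was tested on simulated data. Alternatives in scaling, filter, offset, probe sets, blocks and left-out arrays were tried.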

Additional observations from a re-analysis of the deposited data

Results flagged for a closer look

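In 4 genes the arrays ran in opposite directions in paired comparisons, each without overlap of the groups, and in none did the interaction pass the test. Resection ran upward in A20 and downward in βgal livers for Rsad2 (interaction 2.79, adjusted p = 0.225) and for Dtx3l (1.30, adjusted p = 0.212). A20 livers were above βgal livers after resection and below them before it for Xaf1 (0.88, adjusted p = 0.290) and Oas3 (0.36, adjusted p = 0.363). Each pattern was seen in 2 of the 38 genes, against 11.0% of all genes for the resection pattern and 10.2% for the A20 pattern.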

How the results depend on the processing

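No direction was reversed in the 28 differences that were called or named for a small p, over 603 refits. Of these refits 501 stayed on their side of the threshold, 39 came to pass it and 63 no longer passed it. The causes of the changes were not tested. Many of the refits could not change a difference or its direction, and bear on its p-value alone. These include the fits without a variance trend, with a replicate block and with only the arrays compared. For a comparison of 2 groups they also include the fits without an array of another group. Before resection, where 2 genes were called, the count was 0 after quantile normalization, after median centring, with a group mean of at least 100, with only the arrays compared and without both βgal replicate 1 arrays. It was 5 with the mean over the probe sets of a gene and 7 with RNA integrity as a covariate, and 0 to 7 with 1 array left out. Over all genes the count moved as well, with 444 in the fit reported, 640 with the mean over probe sets, 1094 with the covariate and 5 to 1686 with 1 array left out. In A20 livers, where resection called 0 genes, the count was 1 with only the arrays compared and without both βgal replicate 1 arrays, 2 with the integrity covariate and 0 to 1 with 1 array left out. In βgal livers, where it called 1, the count was 0 after quantile normalization, after median centring, with only the arrays compared and without both βgal replicate 1 arrays, 2 with the mean over probe sets, 5 with the covariate and 0 to 1 with 1 array left out. For A20 averaged over both times (3 genes) it was 1 after quantile normalization and after median centring, 0 without both βgal replicate 1 arrays and 0 to 9 with 1 array left out (959 over all genes in the fit reported, 17 to 2707 with 1 array left out). For resection averaged over both transgenes (1 gene) it was 2 without both βgal replicate 1 arrays, 3 with the covariate and 0 to 2 with 1 array left out. The counts of resection over all genes rose with the covariate as well. They went from 400 in the fit reported to 2362 in βgal livers, and from 180 to 1052 in A20 livers. Averaged over both transgenes they went from 846 to 2257. With the mean over probe sets 638 were called in βgal livers. With only the arrays compared, 506 were called in A20 and 8 in βgal livers. The group's counts of 0 for A20 against βgal after resection and for the interaction moved under no alternative.

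The replicate numbers are not stated to pair the arrays, and deviations of same-numbered arrays correlated between −0.19 and 0.68 over 42703 probe sets. The 0.68 was that of post-βgal with pre-βgal, while post-A20 with pre-A20 gave −0.04 and no other pair of groups exceeded 0.21. The fit reported treats all arrays as independent. With a replicate block the counts were 4 before resection, 5 for A20 averaged over both times and 0 in βgal livers. With a replicate block within each transgene the counts of the group were 3 for resection in A20 livers, 6 in βgal livers and 3 averaged. The counts over all genes were 686, 1585 and 1705. This block gives no value for A20 against βgal. Chosen after seeing the data, a crossed replicate block called 5 genes before resection (837 over all genes). Variances fitted on the genes tested alone, also chosen after seeing the data, called 7 before resection, 6 for A20 averaged over both times and 2 in βgal livers. The latter counts were 823, 1528 and 710 over all genes. The fit with only the arrays compared was not run for the averages and the interaction.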
